A study of Arabidopsis thaliana with 8 samples.

Results

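Expansins are small secreted proteins that loosen the plant cell wall and let it stretch, and 34 of the 27197 gene loci measured in Arabidopsis thaliana carpels were annotated as members of this family. The 34 were all loci whose deposited description contains the word expansin and whose locus identifier is valid and occurs 1 time. By their descriptions they comprised 24 alpha-expansins (EXPA), 6 beta-expansins (EXPB), 3 genes of expansin-like family A (EXLA) and 1 gene of expansin-like family B (EXLB). Genes described neither as beta nor as expansin-like were taken as alpha. The gene EXP3 (AT2G37640), described in the files as a Barwin-like endoglucanase, and the plant natriuretic peptide gene PNP-A were outside that rule.

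Alpha- and beta-expansins act without cutting wall polymers. They weaken the contacts between cellulose and matrix polysaccharides such as xyloglucan, and they work best in an acid wall, which plasma-membrane proton pumps create. Expansin-like proteins share the fold, but no wall-loosening activity has been established for them. In flowers, growth of the carpel by cell expansion follows on cell division, and a style and stigma form at its upper end.

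Floral stages 8 to 13 were sampled, with carpels cut out by hand from 15 inflorescences of plants of ecotype Columbia grown on soil in long days. The 3 genotypes were wild type (WT, 2 libraries), a mutant whose label names NGATHA 1, 2, 3 and 4 without alleles (nga, 3 libraries), and an overexpression line (35S:NGA, 3 libraries). NGATHA proteins are B3-domain transcription factors with a known part in style and stigma formation. The 35S promoter of cauliflower mosaic virus is active in most plant tissues, and the label does not say which NGATHA gene it drives. NGA3 was at 102 to 166 RPKM in 35S:NGA against 4.81 to 5.47 in WT and 2.56 to 2.97 in nga, and NGA4 was at 0.123 to 0.248 RPKM in nga against 3.83 to 3.97 in WT. NGA1, at 21.2 to 25.6 RPKM in nga against 23.5 to 23.9 in WT, and NGA2, at 7.73 to 14.9 against 8.15 to 9.50, overlapped WT in the mutant. In 35S:NGA, NGA1 was below WT at 12.9 to 21.4 RPKM. NGA2, at 5.78 to 8.88 RPKM, and NGA4, at 3.68 to 4.56 RPKM, overlapped WT in that line.

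The values are RPKM, read numbers divided by gene length and by the library's mapped reads. This scales for gene length and depth but not for the makeup of each library. RPKM over all loci summed to between 591158 (nga 1) and 618997 (nga 3). Mapped reads, recovered from the steps between low values, ranged from 23.1 M to 38.3 M per library, so that 1 read on a gene of 1 kb was worth 0.0261 to 0.0433 RPKM. Lane 6 held both WT libraries with nga 1 and nga 2, lane 7 held the first and second 35S:NGA libraries, and lane 8 held the third library of each line. As 35S:NGA and WT shared no lane, a fit with lane as a term links them only through nga. Replicate titles do not state separate plants, so p-values reflect only how far these samples differ, and that variation could be technical. The 8 carpel and ovule markers, all above 0 in every library, summed to 384 and 389 RPKM in WT, 410 to 490 in nga and 391 to 467 in 35S:NGA. In nga against WT HEC1 was lower and INO and SHP2 were higher at an adjusted p under 0.05 (limma). Of all tested genes 7.65% were lower and 9.26% higher in this way. In 35S:NGA against WT 0 of the 8 passed, at a median log2 difference of 0.14. CRC was lower, at 7.39 to 19.2 RPKM against 29.6 and 41.7 RPKM. SPT was higher, at 53.4 to 67.4 RPKM against 31.1 and 30.9 RPKM. Summed RPKM of 9 mature pollen markers was 33.5 and 72.5 in WT, 94.9 to 171 in nga and 77.7 to 302 in 35S:NGA, and at most 1 of the 9 was at 0 in any library. VGD1 was the highest of them in every library, and ANX1 stayed at 2.34 to 3.38 RPKM. Of 8 pollen markers tested 0 were called in any comparison. In nga against WT the tapetum and microspore genes LAP6 and TKPR1 and the petal and stamen gene PI were called higher (limma). Summed RPKM of 9 green tissue markers, all above 0 in every library, was 3438 and 3646 in WT, 3686 to 7837 in nga and 3936 to 8973 in 35S:NGA. The part of any of these marker sets in the expansin results was not tested.

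The carpels held transcripts of many expansins. Of the 34 genes, 19 reached 1 RPKM in at least 2 libraries and were tested: 13 of 24 EXPA, 3 of 6 EXPB, all 3 EXLA and not the EXLB gene. Of those, 13 were at 1 RPKM or more in all 8 libraries. Another 4 genes were listed at 0 in every library. These were EXPA7 and EXPA18, known from root hairs, EXPA2, known from germinating seeds, and EXPB6. A further 5 genes were above 0 in 1 library only, with EXPA22 at 0.324 RPKM and EXPB4 at 0.101 RPKM in 35S:NGA 3, EXP26 at 0.0406 RPKM in 35S:NGA 3, EXPB2 at 0.0396 RPKM in nga 1 and EXLB1 at 0.0253 RPKM in WT 1. Among the 15 genes that were not tested the highest value was 1.05 RPKM, of EXPA16 in 35S:NGA 3, and no other value of these genes exceeded 0.968 RPKM.

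**Figure D1:**
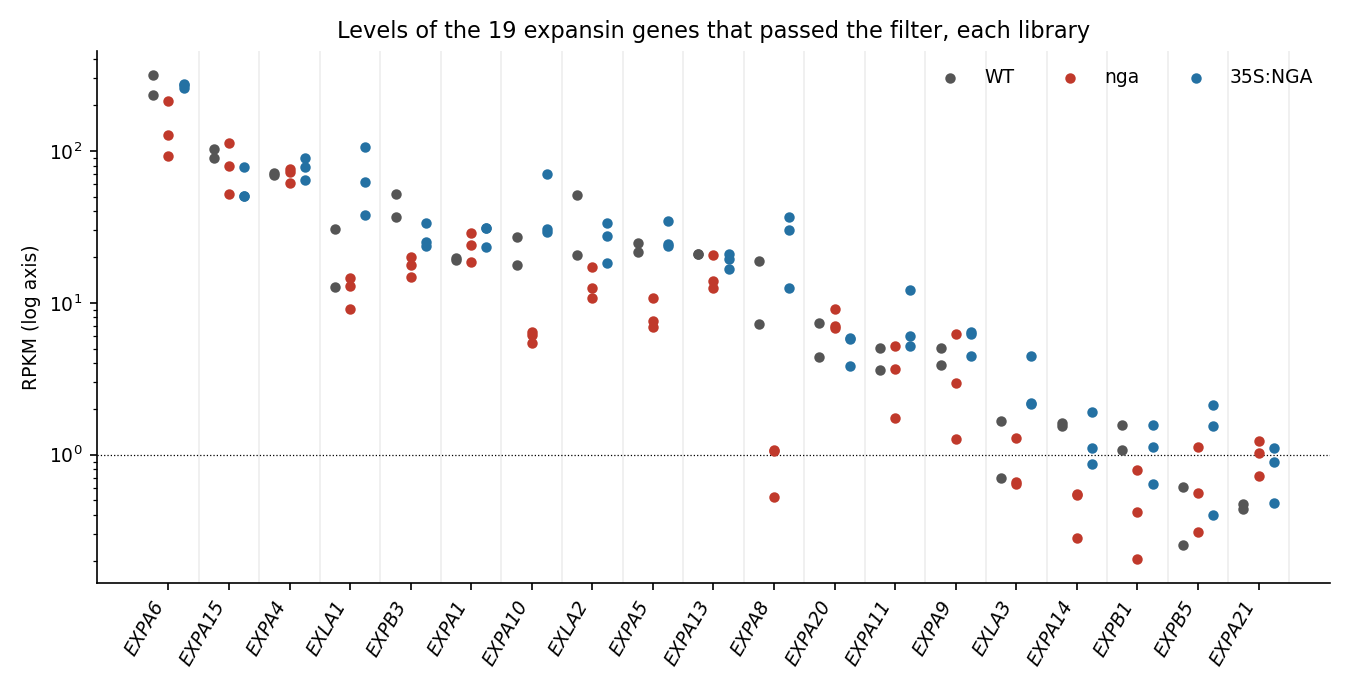
RPKM on a log axis of the 19 expansin genes that passed the filter, ordered by mean level, with 1 point per library in the colour of its group. EXPA6 lies above the others in every library, and the nga points of EXPA8 lie below the WT and 35S:NGA points.

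EXPA6 was the most abundant expansin transcript in all 8 libraries. Its level was 315 and 234 RPKM in WT, 126, 92.4 and 212 RPKM in nga, and 275, 272 and 259 RPKM in 35S:NGA. All 3 nga libraries lay below every WT and 35S:NGA library, with nga 3 closest to them. EXPA6 alone made up 45.4% and 37.3% of the summed expansin RPKM in WT, 28.8% to 43.7% in nga and 36.0% to 43.1% in 35S:NGA.

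EXPA15 and EXPA4 followed. EXPA15 was at 89.0 and 102 RPKM in WT, 113, 52.0 and 78.8 RPKM in nga, and 50.1, 78.3 and 50.2 RPKM in 35S:NGA. The nga values spanned those of WT, while the 35S:NGA values were all below WT. EXPA4 was at 71.1 and 68.9 RPKM in WT, 75.3, 72.5 and 61.7 RPKM in nga, and 78.6, 64.4 and 89.0 RPKM in 35S:NGA, with all 3 groups overlapping. The other members of the 10 most abundant were EXLA1, EXPB3, EXPA1, EXPA10, EXLA2, EXPA5 and EXPA13, of which the lowest mean over the 8 libraries was 18.2 RPKM. In the order of mean levels EXPA15 and EXPA4 overlapped over the libraries, as did each pair of genes from EXLA1 down to EXPA13. EXPA6 was above EXPA15 in every library, although their ranges over the 8 libraries overlapped.

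Of the tested expansins outside these 10, EXPA8 reached 36.8 RPKM in 35S:NGA 1 and is described with the comparisons. EXPA20 ranged from 3.83 to 9.10 RPKM, EXPA11 from 1.74 to 12.1 RPKM and EXPA9 from 1.28 to 6.39 RPKM, and in each of the 3 the WT values lay within the range of the other libraries. EXPB1 ranged from 0.206 RPKM in nga 2 to 1.58 RPKM in WT 1, and EXPA21 from 0.440 RPKM in WT 2 to 1.22 RPKM in nga 1. EXPA21 is the first of 6 alpha-expansin genes that lie close together on chromosome 5 at gaps of 386 to 4003 bases, and the other members of that cluster, EXPA22, EXPA23, EXP26, EXPA25 and EXPA24, did not pass the filter.

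The summed RPKM of the 34 genes was lowest in the mutant. The WT sums were 695 and 628, those of nga 429, 321 and 484, and those of 35S:NGA 638, 756 and 706. All 3 nga sums were below all 5 others, and WT and 35S:NGA overlapped. As a share of all RPKM the family took 0.114% and 0.103% in WT, 0.0542% to 0.0782% in nga and 0.108% to 0.126% in 35S:NGA. The sum is weighted towards EXPA6, and without that gene it was 379 and 394 in WT, 229 to 303 in nga and 363 to 484 in 35S:NGA, again with every nga library lowest.

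**Figure D2:**
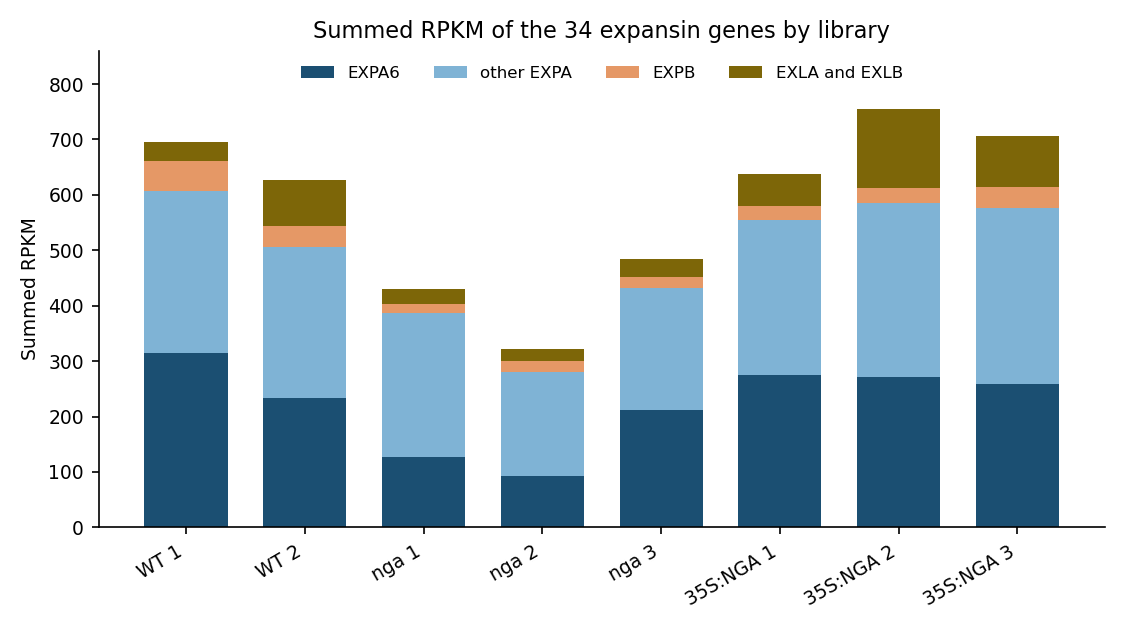
Summed RPKM of the 34 expansin genes in each of the 8 libraries, as bars stacked by EXPA6, other EXPA, EXPB and EXLA genes. The 3 nga bars, at 321 to 484, are shorter than the WT and 35S:NGA bars, at 628 to 756.

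The first comparison asks which expansin transcripts differ in carpels of the mutant. In nga against WT 5 of the 19 tested expansins fell and 0 rose: the alpha-expansins EXPA8, EXPA10, EXPA5 and EXPA14 and the beta-expansin EXPB3. Over all 17786 genes tested 16.9% were called in this comparison at an adjusted p under 0.05, 7.65% as lower and 9.26% as higher. At an unadjusted p under 0.05 there were 8 expansins, all lower, beside 36.3% of all tested genes. The median log2 difference of the 19 was -0.44, beside -0.0008 for all tested genes, with 15 expansins below 0 and 4 above. In bulk tissue, fewer cells of a type and less RNA per cell cannot be told apart.

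EXPA8 had the largest difference among the tested expansins. It was at 18.8 and 7.20 RPKM in WT, 0.530, 1.06 and 1.07 RPKM in nga, and 36.8, 30.02 and 12.4 RPKM in 35S:NGA. The mutant libraries were all near 1 RPKM, and WT 2 and 35S:NGA 3 were the lowest of their groups. Its mean RPKM was 14.6-fold higher in WT than in nga (0.888 ± 0.310, SD, n = 3), and the log2 difference of RPKM + 1 was -2.77 ± 0.49 (SE, limma with Benjamini-Hochberg adjustment, adjusted p = 0.0166). The call was lost without nga 1 (-2.62, limma, adjusted p = 0.056).

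EXPA10, an alpha-expansin known for its part in leaf growth and in the breakage of the pedicel, was at 26.9 and 17.8 RPKM in WT, 6.40, 6.18 and 5.45 RPKM in nga, and 29.0, 30.8 and 70.2 RPKM in 35S:NGA. The mutant values were close to each other and below every other library, and 35S:NGA 3 stood above the rest. The log2 difference between nga and WT was -1.71 ± 0.36 (SE, limma, adjusted p = 0.0233). That call was lost without nga 1 (-1.75, limma, adjusted p = 0.0644) and without nga 2 (-1.73, adjusted p = 0.0594).

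EXPA5, linked to growth in response to brassinosteroids, was at 24.6 and 21.5 RPKM in WT, 6.97, 7.62 and 10.8 RPKM in nga, and 23.7, 34.4 and 24.3 RPKM in 35S:NGA. All nga libraries were below all others, while WT and 35S:NGA overlapped. The log2 difference between nga and WT was -1.37 ± 0.22 (SE, limma, adjusted p = 0.0138).

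EXPB3 was the only beta-expansin above 3 RPKM in any library. It was at 52.1 and 36.8 RPKM in WT, 14.7, 20.0 and 17.6 RPKM in nga, and 25.1, 23.6 and 33.3 RPKM in 35S:NGA. WT was highest, nga lowest and 35S:NGA between them, with no overlap of any pair of groups. The log2 difference between nga and WT was -1.29 ± 0.21 (SE, limma, adjusted p = 0.0141).

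EXPA14, known from lateral root formation, was scarce. It was at 1.61 and 1.56 RPKM in WT, 0.541, 0.282 and 0.554 RPKM in nga, and 0.863, 1.101 and 1.92 RPKM in 35S:NGA. The nga libraries were the 3 lowest, all under 1 RPKM, and those of 35S:NGA lay on both sides of WT. Its call in nga against WT was lost with a pseudocount of 5 (limma, adjusted p = 0.0532). It was also lost without nga 1, nga 2 or 35S:NGA 2 (limma, adjusted p = 0.0605 to 0.106). The log2 difference of RPKM + 1 between nga and WT was -0.83 ± 0.22 (SE, limma, adjusted p = 0.0422), a scale on which changes of genes this low are understated, as mean RPKM was 3.45-fold higher in WT.

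**Figure D3:**
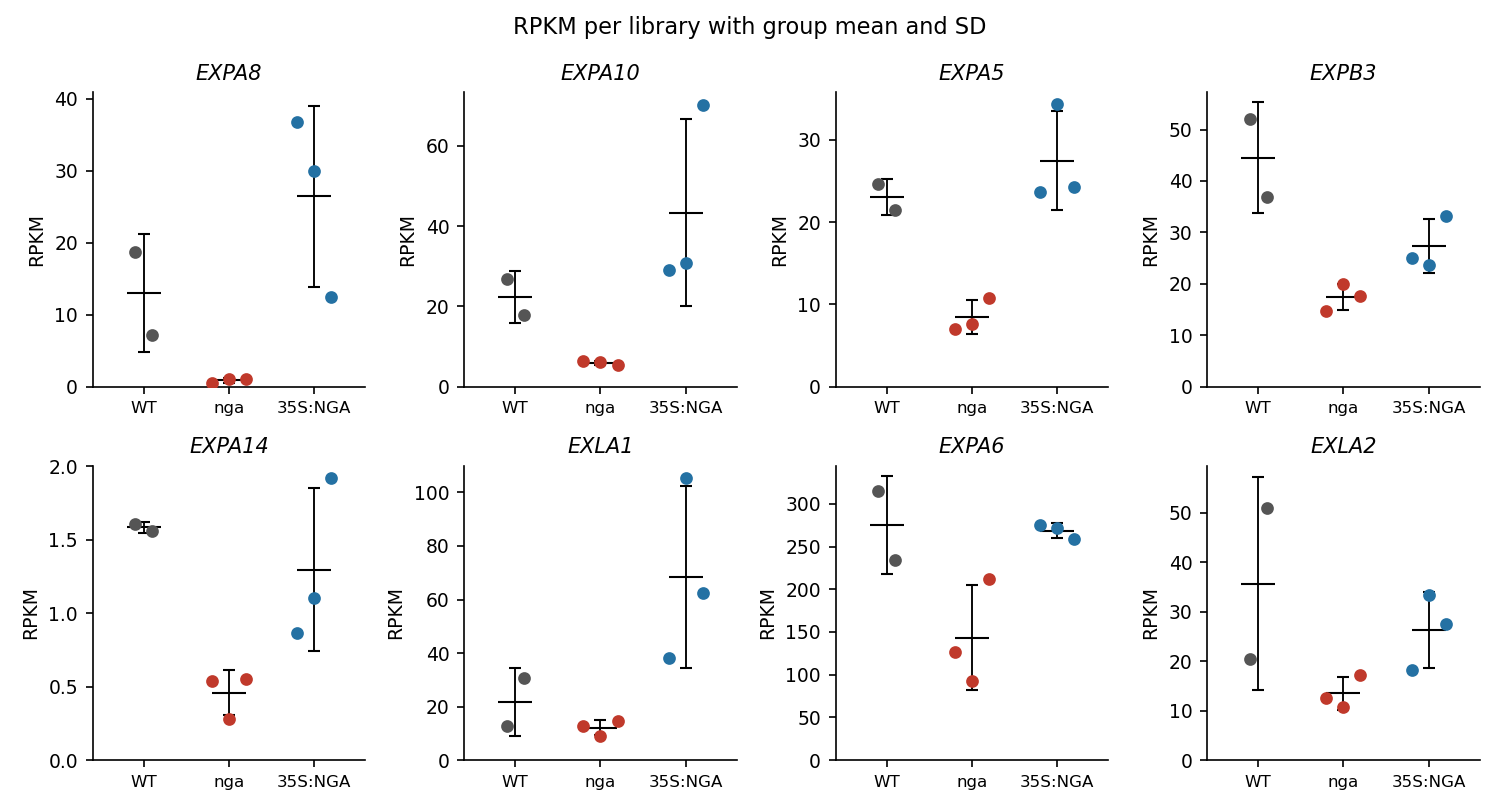
RPKM per library, with group mean and SD, of the expansins described most fully, with a linear axis from 0 in each panel. In EXPA8, EXPA10, EXPA5 and EXPB3 the 3 nga points lie below every WT and 35S:NGA point.

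Several abundant expansins missed the threshold. EXPA6 differed by -1.001 ± 0.31 between nga and WT (SE, limma, adjusted p = 0.0599). It passed the threshold under the replicate block (adjusted p = 0.0406), with lane as a term (adjusted p = 0.0095), without lane 8 (adjusted p = 0.00942) and without nga 3 (adjusted p = 0.00756). The last 3 settings take nga 3 out of this contrast and gave the same difference, -1.32, so they are not separate. The other 14 settings left EXPA6 uncalled, for example without nga 2 (limma, adjusted p = 0.124). EXLA2, a gene of expansin-like family A known from responses to necrotrophic fungi, was at 20.5 and 51.0 RPKM in WT, 12.5, 10.8 and 17.2 RPKM in nga, and 18.2, 33.3 and 27.6 RPKM in 35S:NGA, with WT 2 well above the rest. Its difference between nga and WT was -1.23 ± 0.39 (SE, limma, adjusted p = 0.0631). It passed under the replicate block (adjusted p = 0.0405) and without nga 3 (adjusted p = 0.0437), and 16 other settings left it uncalled. EXPA1, an alpha-expansin known from guard cells, was at 19.8 and 18.98 RPKM in WT, 28.7, 24.0 and 18.6 RPKM in nga, and 23.2, 31.3 and 30.9 RPKM in 35S:NGA, so that nga overlapped WT. EXPA13 was at 20.9 and 20.8 RPKM in WT, 14.0, 12.4 and 20.5 RPKM in nga, and 16.8, 19.3 and 21.1 RPKM in 35S:NGA, with nga 3 next to WT and the other nga libraries lower. Its difference between nga and WT, -0.42 ± 0.20 (SE, limma, adjusted p = 0.169), passed with lane as a term (adjusted p = 0.016), without lane 8 (adjusted p = 0.0161) and without nga 3 (adjusted p = 0.0188). These settings again take nga 3 out of the contrast and gave the same difference, -0.63. The other 15 settings left EXPA13 uncalled.

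Counting genes whose groups did not overlap, 9 of the 19 expansins were lower in every nga library than in every WT library and 1, EXPA21, was higher. Over all tested genes 27.7% were lower and 29.4% higher in this way. Within lane 6, where WT 1, WT 2, nga 1 and nga 2 were sequenced together, the fit without lane 8 gave -2.84 for EXPA8, -1.65 for EXPA10, -1.53 for EXPA5, -1.30 for EXPB3 and -0.88 for EXPA14, and 7 expansins were called lower, beside 33.8% of all tested genes called in that fit. Without WT 1, 0 expansins were called (8 at an unadjusted p under 0.05), beside 0.231% of all tested genes, and without WT 2, 0 were called (7 at an unadjusted p under 0.05), beside 0.264%. Each of those fits leaves 1 WT library, which is assumed to vary like the other groups. The differences without WT 1 and without WT 2 were -2.13 and -3.40 for EXPA8, -1.42 and -1.99 for EXPA10, -1.27 and -1.46 for EXPA5, -1.05 and -1.54 for EXPB3, and -0.81 and -0.84 for EXPA14. The count was 2 without nga 1, 3 without nga 2 and 8 without nga 3, beside 2.77%, 4.75% and 28.8% of all tested genes.

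Promoters of EXPA10 and EXPA5, both called lower in nga, are shown here for a short motif that both hold. All 34 genes matched the RefSeq annotation of TAIR10.1, and the window from 250 bases before to 50 bases after the gene start was searched on both strands. The letters TGTCTC, or GAGACA on the other strand, known as the auxin response element, were in 14.1% of 26709 promoters and in 5 of 34 expansins. The share in the family was thus close to that in all promoters. Of the 19 tested expansins 4 had them, EXPA6, EXPA10, EXPA5 and EXPA8, with 2 copies in EXPA5. Of the 6 expansins called in at least 1 comparison 3 had them, while EXPB3, EXPA14 and EXLA1 did not. In EXPA8 the 250 bases before the gene start held 0 copies. The 250 bases before the gene start read as follows 5′ to 3′ on the strand of the gene, with these letters in capitals. EXPA10 is at chr1:9259182-9259431 on the plus strand and EXPA5 at chr3:11013452-11013701 on the minus strand.
EXPA10: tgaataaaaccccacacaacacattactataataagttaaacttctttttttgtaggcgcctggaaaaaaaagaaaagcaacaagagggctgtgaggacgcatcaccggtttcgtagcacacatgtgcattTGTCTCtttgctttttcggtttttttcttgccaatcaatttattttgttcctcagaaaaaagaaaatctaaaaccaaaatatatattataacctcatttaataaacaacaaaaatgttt
EXPA5: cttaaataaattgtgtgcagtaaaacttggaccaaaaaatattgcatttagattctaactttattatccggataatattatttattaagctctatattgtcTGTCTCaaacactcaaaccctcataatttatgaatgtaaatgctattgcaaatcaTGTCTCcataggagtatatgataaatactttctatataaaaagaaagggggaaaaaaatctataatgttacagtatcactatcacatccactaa

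In EXPA10 the first base of the motif lay 119 bases before the gene start, and in EXPA5 149 and 94 bases before it. In EXPA6 it lay 42 bases before the start (chr2:12433821-12433850, minus strand), and in EXPA8 39 bases after it (chr2:16950649-16950678, minus strand). The 30-base windows around the motif in EXPA6 and EXPA8, the genes with the highest level and the largest difference, read on the strand of the gene as follows, with GAGACA in capitals.
EXPA6: tatattttggtaGAGACAcattgagggaaa
EXPA8: gtgaaagaattaGAGACAccccaatgtact

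The hexamer CACCTG, bound by B3 domains of the RAV type, was in 3.27% of promoters and in 0 of 34 expansin windows, and the G-box CACGTG was in 7.79% of promoters and in 1 of 34. The counts describe these letters in these windows and say nothing on binding.

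The second comparison asks how the family differs in the overexpression line, in which NGA3 alone of the 4 NGATHA genes was raised. Between 35S:NGA and WT 0 of 19 expansins were called by limma, at a background of 0.152% of all tested genes, 0.0843% higher and 0.0675% lower. Without adjustment 4 were higher and 1 was lower at a p under 0.05, beside 20.4% of all tested genes in both directions. The median difference was 0.23 beside 0.02 for all tested genes, with 11 expansins above 0 and 8 below. In 6 expansins every 35S:NGA library was above every WT library and in 2 every one was below, beside 23.3% of all tested genes in each direction.

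The expansin-like gene EXLA1 differed most from WT in the overexpression line. It was at 12.6 and 30.6 RPKM in WT, 12.9, 9.16 and 14.5 RPKM in nga, and 38.1, 105 and 62.3 RPKM in 35S:NGA. Every 35S:NGA library was above both WT libraries, but WT 1 was at the level of the mutant and 35S:NGA 2 far above its group. The log2 difference between 35S:NGA and WT was 1.63 ± 0.46 (SE, limma, adjusted p = 0.143). The related gene EXLA3, at 0.704 and 1.65 RPKM in WT, 0.644, 1.28 and 0.663 RPKM in nga, and 2.16, 4.44 and 2.18 RPKM in 35S:NGA, differed by 0.84 ± 0.31 (SE, limma, adjusted p = 0.2003). The 2 genes lie 2012 bases apart on the same strand of chromosome 3, and their coding sequences are 86.6% identical with a shared run of 57 bases, so reads from one could be counted for the other; whether any were was not tested.

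Other differences from WT were 0.84 ± 0.36 for EXPA10 (SE, limma, adjusted p = 0.242), 0.52 ± 0.20 for EXPA1 (adjusted p = 0.208) and -0.68 ± 0.21 for EXPB3 (adjusted p = 0.161). For EXPA6 the difference was -0.02 ± 0.31, and its sign changed under 4 of 18 other settings. With lane as a term the median of the 19 was -0.14 and 0 were called (6 at an unadjusted p under 0.05), with 1.82 ± 0.34 for EXPA10 (SE, limma, adjusted p = 0.0899), 1.23 ± 0.98 for EXLA1 (adjusted p = 0.460) and -1.03 ± 0.35 for EXPA6 (adjusted p = 0.162). EXPB3 was the only expansin at an unadjusted p under 0.05 that was below WT in both lines.

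The third comparison sets the overexpression line against the mutant. In 35S:NGA against nga 4 of 19 expansins rose and 0 fell, at a background of 5.34% of all tested genes, 3.72% higher and 1.62% lower. The 4 were EXPA8, EXPA10, EXPA5 and EXLA1. An unadjusted p under 0.05 was reached by 10, all higher, beside 24.7% of all tested genes. The median difference was 0.63 beside 0.003 for all tested genes, with 16 expansins above 0 and 3 below. In 9 every 35S:NGA library was above every nga library and in 1, EXPA20, every one was below, beside 13.6% and 12.8% of all tested genes.

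EXPA8 had the largest difference, 3.75 ± 0.44 on the log2 scale (SE, limma, adjusted p = 0.00324). In RPKM its mean was 26.4 ± 12.6 (SD, n = 3) in 35S:NGA and 0.888 ± 0.310 (SD, n = 3) in nga. EXPA10 differed by 2.54 ± 0.32 (SE, limma, adjusted p = 0.00453), with means of 43.3 ± 23.3 and 6.01 ± 0.497 RPKM (SD, n = 3 each), a 7.21-fold ratio. EXPA5 differed by 1.59 ± 0.20 (SE, limma, adjusted p = 0.00412) and EXLA1 by 2.30 ± 0.41 (SE, limma, adjusted p = 0.0197). The spread of EXLA1 within 35S:NGA was wide, 68.5 ± 34.03 RPKM (SD, n = 3), against 12.2 ± 2.73 RPKM in nga, and it lost its call without nga 1, nga 2, 35S:NGA 2 or 35S:NGA 3 (adjusted p = 0.0547 to 0.0702).

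EXPA6 missed the threshold at 0.98 ± 0.28 (SE, limma, adjusted p = 0.0829), as did EXLA3 at 1.04 ± 0.28 (adjusted p = 0.0716), EXPB3 at 0.61 ± 0.19 (adjusted p = 0.0984) and EXPA14 at 0.63 ± 0.20 (adjusted p = 0.107). All 3 EXLA genes had every 35S:NGA library above every nga library. Without nga 3 the count of called expansins was 7, beside 14.1% of all tested genes.

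Lane 8 holds 1 library of each of these lines. There EXPA8 was at 1.07 RPKM in nga 3 and 12.4 in 35S:NGA 3, EXPA10 at 5.45 and 70.2, EXLA1 at 14.5 and 62.3, and EXPA5 at 10.8 and 24.3, so all 4 were higher in the overexpression library within the lane. With lane as a term in the model, which leaves that contrast to these 2 libraries and takes the spread from the libraries of lanes 6 and 7, EXPA10 alone of the expansins was called, beside 0.815% of all tested genes (3.47 ± 0.28, SE, limma, adjusted p = 0.0173), while EXPA8 gave 2.70 ± 0.58 (adjusted p = 0.128), EXLA1 2.03 ± 0.80 (adjusted p = 0.341) and EXPA5 1.098 ± 0.27 (adjusted p = 0.162).

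**Figure D4:**
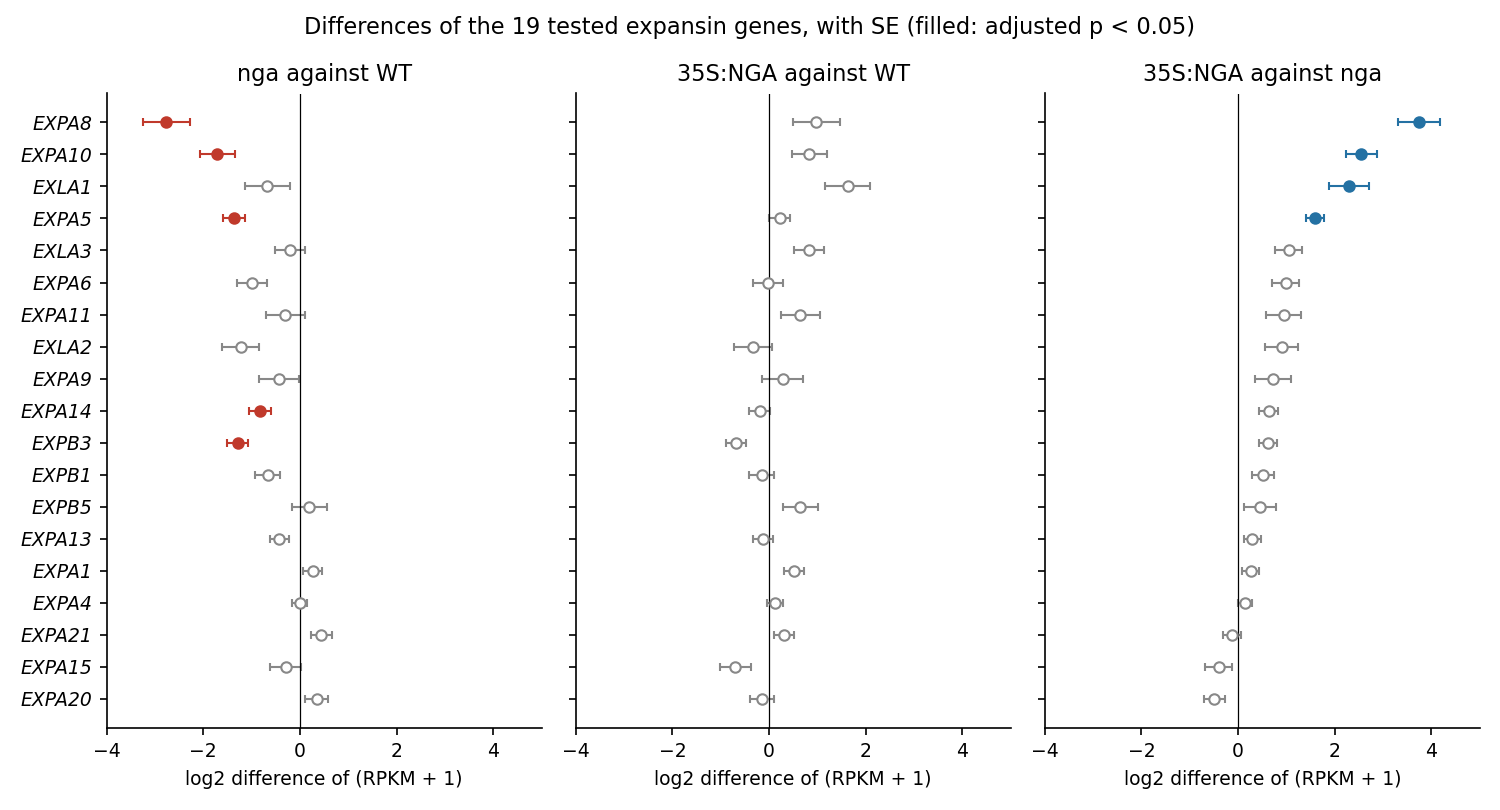
Log2 differences of RPKM + 1 with SE for the 19 tested expansin genes in the 3 comparisons, filled where the adjusted p was under 0.05. The filled points are 5 below 0 for nga relative to WT and 4 above 0 for 35S:NGA relative to nga, and there are 0 for 35S:NGA relative to WT.

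EXPA5, EXPA8 and EXPA10 were called both as lower in nga than in WT and as higher in 35S:NGA than in nga. Both comparisons use the nga libraries, so the second is not independent of the first. Set side by side, their differences from WT were -1.37 in nga and 0.23 in 35S:NGA for EXPA5, -2.77 and 0.98 for EXPA8, and -1.71 and 0.84 for EXPA10. For EXPB3 they were -1.29 and -0.68, and for EXLA1 -0.68 and 1.63. In all, 6 expansins were called in at least 1 comparison. No background share of all tested genes was worked out for this count or for the paired calls of EXPA5, EXPA8 and EXPA10.

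By subfamily, the median differences of the 13 tested EXPA genes were -0.42, 0.23 and 0.63 for nga and for 35S:NGA relative to WT and for 35S:NGA relative to nga. Those of the 3 EXPB genes were -0.67, -0.15 and 0.51, and those of the 3 EXLA genes -0.68, 0.84 and 1.04. The EXLA genes summed to 33.8 and 83.2 RPKM for WT, 26.03, 21.3 and 32.4 for nga, and 58.4, 143 and 92.1 for 35S:NGA. The EXPB genes summed to 53.9 and 38.5 RPKM for WT, 16.1, 20.5 and 19.1 for nga, and 26.1, 26.7 and 36.6 for 35S:NGA. The EXLA sums overlapped between WT and 35S:NGA, whereas the EXPB sums of WT lay above all others. In sequence EXPA5 and EXPA10 were 71.4% identical in coding sequence, while EXPA10 was closest to EXPA1, at 79.7%, EXPA8 closest to EXPA1, at 73.4%, and EXPB3 closest to EXPB1, at 78.4%. Expansins at very low levels included near-copies, with EXPA22 and EXP26 at 97.7% identity and EXPA23 and EXPA25 at 97.5%, so their values below 1 RPKM are uncertain.

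Genes that act beside expansins in wall extension were counted as fixed lists. Of 9 tested plasma-membrane proton pumps, which acidify the wall, 0 were called in nga against WT, with a median of 0.20, and 0 in 35S:NGA against WT, with a median of 0.29. Between the 2 lines, AHA3 (1.13 ± 0.25, SE, limma, adjusted p = 0.0408) and AHA2 (0.93 ± 0.22, adjusted p = 0.0481) rose in 35S:NGA, at a median of 0.11. Of 8 tested genes of primary-wall cellulose synthesis 0 were called in either comparison with WT, at medians of -0.38 and 0.02, and the synthase subunit gene CESA1 rose in 35S:NGA against nga (0.53 ± 0.11, SE, limma, adjusted p = 0.0329), at a median of 0.41.

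Of 5 genes of xyloglucan synthesis, the matrix polymer that expansins are thought to act on, the xylosyltransferase genes XXT5 (-0.99 ± 0.25, SE, limma, adjusted p = 0.0373) and XXT2 (-0.48 ± 0.12, adjusted p = 0.0337) fell in nga against WT, at a median of -0.69. Those 2 of 5 stood beside 7.65% of all tested genes called lower. None was called in 35S:NGA against WT, at a median of -0.12, and the glucan synthase gene CSLC4 rose in 35S:NGA against nga (1.53 ± 0.29, SE, limma, adjusted p = 0.0247), at a median of 0.76. That 1 of 5 stood beside 3.72% of all tested genes called higher.

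Of 31 xyloglucan endotransglucosylase/hydrolases, enzymes that cut and rejoin xyloglucan, 19 were tested. In nga against WT XTH19 (-2.14 ± 0.51, SE, limma, adjusted p = 0.0313) and XTH8 (-1.38 ± 0.34, adjusted p = 0.0338) fell and XTH5 rose (1.12 ± 0.18, adjusted p = 0.0141), at a median of -0.30. Those 2 lower and 1 higher of 19 stood beside 7.65% of all tested genes called lower and 9.26% called higher. Between 35S:NGA and WT 0 of the 19 were called, at a median of 0.10. Relative to nga, the 35S:NGA libraries differed in 4 of these genes, as XTH8, XTH15 and XTH19 rose by 1.55 ± 0.30, 1.05 ± 0.22 and 1.99 ± 0.46 (SE, limma, adjusted p = 0.0276, 0.0363 and 0.0462) and XTH32 fell (-0.95 ± 0.19, adjusted p = 0.0292), at a median of 0.45. Those 3 higher and 1 lower of 19 stood beside 3.72% and 1.62% of all tested genes. The root hair bHLH factors, regulators of EXPA7 and EXPA18 in roots, were not tested, as their summed RPKM was 0.0752 to 0.340 per library.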

How the data were processed

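Each of 8 deposited files lists RPKM for 33590 entries, a unit stated in the file headers. The submitters' processing notes name FastQC and TAIR10, and the labels name TruSeq kits and a HiSeq2000; for the aligner and counter, the tool is not given in the sources used. Entries without a locus (6374), 1 malformed entry and 18 duplicate entries were left out. Mapped reads were inferred per library from low RPKM values and RefSeq gene lengths, with 37.7% to 41.3% of values whole within 0.005 reads against 0.534% to 0.620% at the median of other totals. Because not nearly all values were whole, no count test was run, and intervals on counts were not given.

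Values were log2(RPKM + 1). The 17786 loci that reached 1 RPKM in 2 or more libraries entered 1 limma model with a mean-variance trend on all 8 libraries, group as the only term, with Benjamini-Hochberg adjustment of p over all of them for each comparison and a threshold of 0.05. The fit was tested on simulated data. The members and gene lists were chosen with earlier results of these data known. Expansins called in any comparison and the 10 with the highest mean RPKM were described in full. Of the list genes, up to 4 called ones per list were named by p; other expansins were named after their values were seen.

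Coordinates and sequences come from RefSeq, build TAIR10.1, on which all 34 genes were matched by locus. Coding sequences were aligned in pairs with Biopython 1.88. Alternatives were other pseudocounts, filters and scalings, a fit of 2 groups only, a replicate block, lane as a term, and leaving out lane 8 or each library, 18 in all. Tools were limma 3.58.1 in R 4.3.3, and matplotlib 3.10.9, pandas 2.3.3, scipy 1.17.1 and numpy 2.4.6 in Python 3.11.15. Raw reads were not used here.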

Additional observations from a re-analysis of the deposited data

Results flagged for a closer look

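EXPA10 moved to opposite sides of WT in the 2 lines. Every nga library, at 5.45 to 6.40 RPKM, was below both WT libraries, at 17.8 and 26.9 RPKM, and every 35S:NGA library, at 29.0 to 70.2 RPKM, was above them. Over all tested genes 27.7% were lower in every nga library than in WT, and 23.3% were higher in every 35S:NGA library than in WT. The share of all tested genes that met both was not worked out. The difference between the lines was 2.54 on the log2 scale (limma, adjusted p = 0.00453, n = 3 each). As the gene was flagged for lying on opposite sides of WT in the lines, that difference is not separate support. Both effects use the same 2 WT libraries, and the difference between the lines does not depend on them. The step from WT to 35S:NGA alone did not pass the threshold (0.84, adjusted p = 0.242).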

How the results depend on the processing

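Each result was recomputed under 18 alternatives. The called count in nga against WT was 5, with 4 to 7 in the fits that kept all libraries or left out lane 8, and 0 to 8 when 1 library was left out; in 35S:NGA against WT it was 0 throughout, and in 35S:NGA against nga it was 4, with 3 to 7 when 1 library was left out and 1 with lane as a term. EXPA10 in 35S:NGA against nga kept its call in all 18 (highest adjusted p = 0.0235), of which lane as a term compares 1 library of each line. The median in nga against WT was -0.017 without a filter and -0.68 at a mean of 5 RPKM or more. In 35S:NGA against WT it was -0.14 with lane as a term. In 35S:NGA against nga it was 0.94 and 0.37 with pseudocounts of 0.1 and 5, 0.26 without a filter and 0.90 at a mean of 5 RPKM or more. Of 645 values of single genes over 36 results, 596 kept direction and side of the threshold, 24 lost and 12 gained a call, and 13 changed sign. For EXPA4 in nga against WT these were 0.076 with lane as a term, 0.076 without lane 8, 0.014 without WT 1 and 0.076 without nga 3 (leaving out 1 library gave -0.065 to 0.076), and in 35S:NGA against nga -0.054 without lane 8. In 35S:NGA against WT they were, for EXPA6, 0.047 with quantile normalization, 0.0089 without lane 8, 0.20 without WT 1 and 0.0089 without 35S:NGA 3 (-0.23 to 0.20 over single libraries left out), for EXLA2 0.31 without WT 2 (-0.96 to 0.31), and with lane as a term -0.44 for EXPA5, -0.14 for EXPA8 and 0.034 for EXPA14. The cause was not tested.

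Whether the replicate numbers pair the samples could not be told from the values. Correlations of deviations from group means ran from -0.26 to 0.367 for same-numbered libraries of different groups. For differently numbered ones they ran from -0.367 to 0.26. With 2 WT libraries, the deviations of WT 1 and WT 2 mirror each other, so their correlations are not separate values. With a replicate block the called counts were 7, 0 and 5, beside 21.9%, 0.124% and 6.14% of all tested genes. Over all genes the called count in nga against WT ran from 41 without WT 1 to 6005 with lane as a term, beside 3008. At 23.1 M to 38.3 M mapped reads, genes under about 0.1 RPKM rest on a few reads each.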

Other observations

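Some expansins stood out in single libraries. EXPA16 was at 1.05 RPKM in 35S:NGA 3, while its other values were 0 to 0.268 RPKM. EXPB5 was at 0.255 and 0.617 RPKM in WT, 0.557, 0.310 and 1.12 RPKM in nga, and 0.399, 1.54 and 2.12 RPKM in 35S:NGA, with no call in any comparison. EXPA11 was at 12.1 RPKM in 35S:NGA 2 and at 1.74 to 6.04 RPKM elsewhere. EXP3, an expansin by symbol that the choice by description left out, was at 14.3 to 23.2 RPKM in the 8 libraries.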
